A study of Sedum plumbizincicola and Sedum alfredii with 13 samples.

Results

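The 150 transcript clusters described here were those with clearly more reads in the hyperaccumulator Sedum plumbizincicola than in the non-hyperaccumulating Sedum alfredii (NHE), in roots and in shoots alike. They were chosen by the measured species ratio itself. The expected count of each cluster was divided by a median-of-ratios size factor of its library, and the mean of this normalised count over the 4 S. plumbizincicola libraries of an organ was divided by the mean over the 2 S. alfredii libraries of that organ. The score of a cluster was the smaller of its root and shoot log2 ratios, and the 150 highest scores were taken from the 10144 clusters with 10 or more counts in all 12 libraries, of 66584 clusters in all. A cluster with under 10 counts in any S. alfredii library could not enter, however high it was in S. plumbizincicola.

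The study compared both species in 12 Illumina RNA-seq libraries of roots and of shoots, taken after 3 days with 10 µM CdCl2 or with 0 µM. For S. plumbizincicola there were 2 libraries, A and B, in each of 4 groups (roots with 10 µM, roots with 0 µM, shoots with 10 µM, shoots with 0 µM). For S. alfredii there was 1 library in each of the same 4 groups. The labels name no transgene, mutant or further agent in any group, and do not say whether a library stood for 1 plant or several, so each p-value measures only the spread between these libraries. Total counts ranged from 1260160 to 2403858 in S. plumbizincicola and from 3434922 to 4670429 in S. alfredii, and reads of both species had been assigned to one set of transcript sequences. The largest chi-square over degrees of freedom between libraries A and B was that of untreated S. plumbizincicola roots, at 14.6. It was 3.11 to 4.87 in the other groups. Among clusters with 10 or more counts in all 12 libraries, the typical cluster did not stand out in this pair. The median absolute log2 ratio of A over B was 0.263, against 0.270 in roots with Cd. In shoots it was 0.232 with Cd and 0.256 without. A ratio over 2-fold was found in 2.90% of these clusters, against 2.91% in roots with Cd. In shoots the share was 1.59% with Cd and 3.29% without. The Cd results that rest on the 2 untreated root libraries are given with and without each.

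Hyperaccumulators are plants that store metals such as cadmium or zinc in their shoots at levels that would poison most species. In the hyperaccumulators studied most closely, genes for metal uptake, loading into the xylem, storage in vacuoles and chelation are known for being highly expressed with or without the metal, in contrast to related species that do not accumulate. The files carry cluster IDs without gene names (0 of 66584 could be paired with a name), so neither the function of any member nor the identity of the organs could be checked against known genes, and members are called by their IDs.

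Of the 150 members, 138 were at least 4-fold higher in S. plumbizincicola in both organs and 12 in 1 organ only. The median log2 ratio of S. plumbizincicola over S. alfredii was 2.54 in roots (5.83-fold, quartiles 2.24 and 3.24) and 2.58 in shoots (5.98-fold, quartiles 2.26 and 3.09), against medians of 0.04 and -0.00 over the 10144 clusters. These ratios are what the choice used and are given as a description, with no test. In every member all 4 S. plumbizincicola libraries lay above both S. alfredii libraries in each organ, which held for 22.1% of the 10144 clusters and largely follows from the choice.

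The size of the ratio varied widely among the members. A ratio of 8-fold or more was found for 48 members in roots, for 46 in shoots and for 23 in both organs, and one of 16-fold or more for 16 in roots, for 12 in shoots and for 4 in both. The widest ratio belonged to c33410_g1. Its normalised counts in S. plumbizincicola roots were 19094 and 20576 with Cd and 27435 and 19804 without, against 96.1 with Cd and 102 without in S. alfredii roots. In S. plumbizincicola shoots they were 2764 and 2471 with Cd and 2191 and 1998 without, against 23.1 with Cd and 21.1 without in S. alfredii shoots. All libraries of 1 species and organ lay close together, and the means, 21728 ± 3853 and 99.3 ± 4.50 in roots (SD, n = 4 and 2), differed 219-fold in roots and 107-fold in shoots.

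The cluster with the next highest score, c36833_g1, was higher by a log2 ratio of 6.59 in roots and 4.46 in shoots. Its normalised counts were 5007 and 5212 with Cd and 5708 and 7753 without in S. plumbizincicola roots, against 69.4 with Cd and 53.2 without in S. alfredii roots. In shoots it had 1277 and 1100 with Cd and 920 and 1062 without in S. plumbizincicola, against 53.7 with Cd and 45.4 without in S. alfredii. Thus on this scale its S. alfredii levels were nearly alike in the 2 organs, whereas its S. plumbizincicola levels were several-fold higher in roots. On the deposited TPM scale, which corrects for transcript length, its S. alfredii means were 16.5 in roots and 6.93 in shoots. Its S. plumbizincicola means on that scale were 1649 in roots and 248 in shoots. Over all clusters open to the choice, the median TPM in S. alfredii was also lower in shoots, at 13.9 against 25.4 in roots. In S. plumbizincicola this median was 22 in shoots and 24.9 in roots. The S. alfredii gap of c36833_g1 on TPM was thus partly shared by clusters at large, and is not read as root bias.

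At the lower edge, the scores passed from 1 cluster to the next with hardly any gap. The last members were c44645_g1, with log2 ratios of 2.17 in roots and 1.96 in shoots, and c33553_g1, with 2.44 in roots and 1.96 in shoots. The first clusters left out were c35906_g1, with 2.61 in roots and 1.96 in shoots, and c40419_g2, with 1.95 in roots and 2.10 in shoots. No gap in the scores separates the 150 from the clusters that follow.

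**Figure D1:**
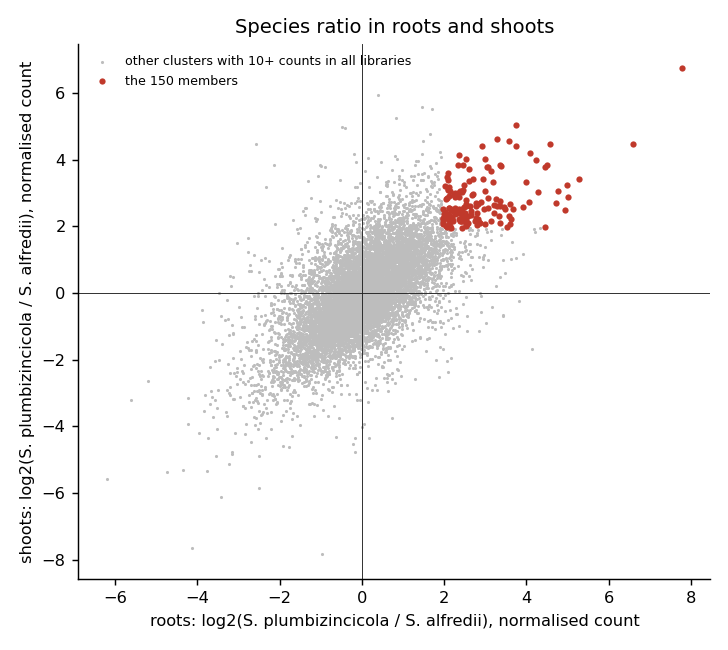
The horizontal axis is the log2 ratio of mean normalised counts, S. plumbizincicola over S. alfredii, in roots and the vertical axis the same ratio in shoots; each point is 1 of 10144 transcript clusters, with the 150 members in red. The members fill the upper right corner from a log2 ratio of about 1.96 in each organ, and c33410_g1 lies apart from the rest at 7.77 in roots and 6.74 in shoots.

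The higher level of the members in S. plumbizincicola was present with and without Cd. When the ratio was taken separately at each dose, all 150 were at least 2-fold higher in each of the 4 pairs of organ and dose, and 95 were at least 4-fold higher in all 4; the lowest of these ratios was 1.56 on the log2 scale. The median log2 ratio was 2.57 with Cd and 2.67 without in roots, and 2.63 with Cd and 2.66 without in shoots. Each of these ratios rests on libraries that the choice used, and on 1 S. alfredii library.

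Set against other transcripts per unit of length, the members were abundant in S. plumbizincicola and mostly scarce in S. alfredii. On the deposited TPM scale, which corrects for transcript length, the median member had 43.4 TPM in S. plumbizincicola roots against 8.95 TPM in S. alfredii roots, and 40.9 TPM in S. plumbizincicola shoots against 5.31 TPM in S. alfredii shoots. The medians over the 10144 clusters were 24.9 and 25.4 TPM in roots and 22 and 13.9 TPM in shoots. The median member thus stood above the median of the one species and below that of the other. This, like the ranks that follow, is favoured by the choice itself. By mean TPM, 17 members were among the 100 highest of the 10144 clusters in S. plumbizincicola roots and 1 in S. alfredii roots, and 6 were in S. plumbizincicola shoots and 0 in S. alfredii shoots.

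Low counts in S. alfredii lie behind many of the ratios. In 85 members at least 1 S. alfredii library held only 10 to 19 counts, which is 56.7% of the members against 9.46% of the 10144 clusters, and the median of the lowest S. alfredii count was 18 in the members against 69 over the 10144. The S. alfredii side of such a ratio rests on few reads and its exact size is uncertain. In bulk tissue, fewer cells of a type and less RNA per cell cannot be told apart, and a lower count in S. alfredii cannot be told apart from a poorer match of its reads to the transcript set.

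Together the members took a large share of the reads in S. plumbizincicola roots. They held 6.48% and 7.38% of all counts in the roots with Cd and 10.3% and 4.81% in those without, against 0.438% with Cd and 0.460% without in S. alfredii roots. In S. plumbizincicola shoots the share was 2.56% and 2.5% with Cd and 2.44% and 2.36% without, against 0.207% with Cd and 0.195% without in S. alfredii shoots. The shares in shoots hardly differed among the 4 S. plumbizincicola libraries, whereas those in the 2 untreated root libraries lay furthest apart.

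That gap came from few members, which were singled out after their values were seen. In 8 members the normalised count was at least 4-fold higher in untreated S. plumbizincicola root library A than in library B, which is 5.33% of the members against 0.158% of the 10144 clusters (16 clusters in all). In 0 members was it 4-fold lower, as in 0% of the 10144 clusters. In all 8 both Cd-treated root libraries lay between the 2 untreated ones, which a pick for a wide gap favours. How often this held in the 16 clusters was not counted. In all 8, untreated shoot library A was also the lowest of the 4 S. plumbizincicola shoot libraries, which held for 27.0% of the 10144 clusters. Without these 8 members the shares in S. plumbizincicola roots were 3.67% and 3.84% with Cd and 3.61% and 3.93% without.

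The 8 include the most abundant members, 6 of them being among the 10 highest by mean TPM over the S. plumbizincicola libraries. The highest was c24187_g1, with a mean of 20508 TPM in S. plumbizincicola roots and 1158 TPM in shoots, against 555 TPM in S. alfredii roots and 66.3 TPM in its shoots. Its normalised counts in S. plumbizincicola roots were 10180 and 10585 with Cd and 29147 and 2797 without, against 277 with Cd and 403 without in S. alfredii roots. Its 2 untreated root libraries differed by 3.38 on the log2 scale, and even the lower one stood far above S. alfredii. In S. plumbizincicola shoots it had 999 and 878 with Cd and 650 and 849 without, against 87.0 with Cd and 69.8 without in S. alfredii shoots.

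The same pattern was seen in c33950_g2, the next most abundant. Its normalised counts in S. plumbizincicola roots were 18960 and 26634 with Cd and 51648 and 4961 without, against 670 with Cd and 951 without in S. alfredii roots. Over the 8, the median log2 species ratio was 4.82 in roots and 2.66 in shoots. Without untreated root library A 7 of the 8 were still among the 150 highest scores, and without library B all 8 were. Over all 150 members the median coefficient of variation of the 4 S. plumbizincicola libraries was close to that of the 10144 clusters, at 17.9% against 16.6% in roots and 14.7% against 14.8% in shoots. A coefficient above 50% was found in 9 members in roots (6%, against 0.868%) and in 5 in shoots (3.33%, against 0.799%).

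**Figure D2:**
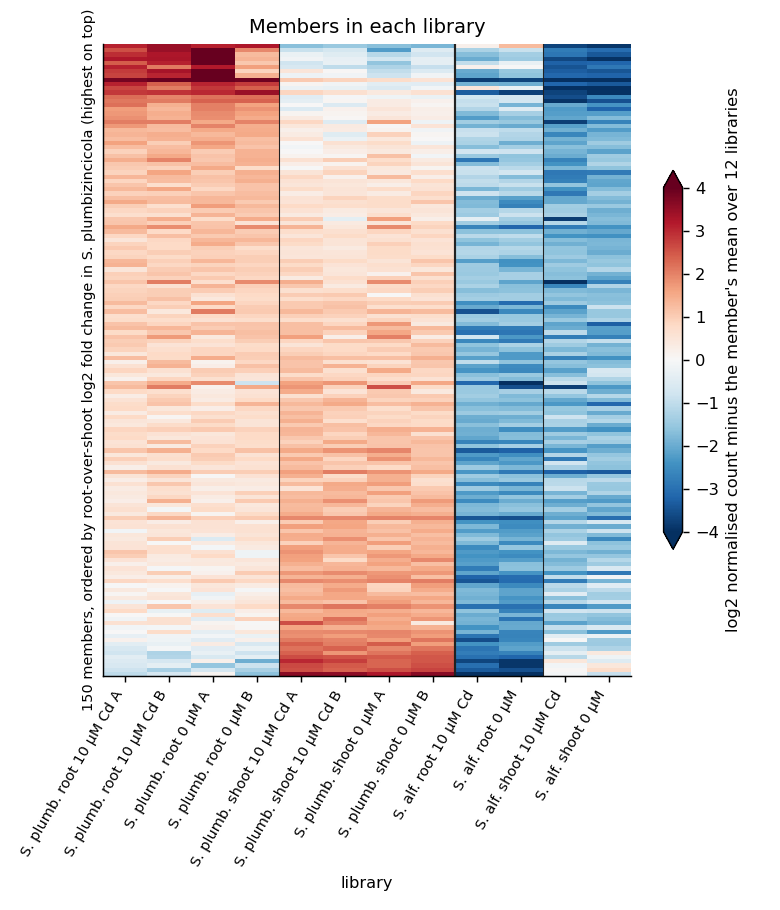
Each row is 1 of the 150 members, ordered from the highest root-over-shoot ratio in S. plumbizincicola on top, and each column 1 of the 12 libraries; the colour is the log2 normalised count minus the mean of the member over all libraries, from blue (lower) to red (higher). The 8 S. plumbizincicola columns on the left are higher than the 4 S. alfredii columns, and several dark rows near the top, though not all, differ between untreated root libraries A and B.

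Cadmium treatment was the study's other question, and the choice of members did not use it, since it averaged over dose. In S. plumbizincicola roots 0 of 150 members passed the test for a Cd response (edgeR's quasi-likelihood test, Benjamini-Hochberg adjusted p under 0.05 over 19935 clusters), against 2.08% of all clusters tested and 0.108% of the 10144. At an unadjusted p under 0.05 there were 5 members and 1332 of the 19935 clusters, and the smallest adjusted p was 0.336; DESeq2 and limma also called 0 members. The log2 fold changes of the members ranged from -0.74 to 0.73, with a median of -0.04 (quartiles -0.22 and 0.16) against -0.01 over the 10144, and 66 of 150 were above 0. No member reached 2-fold.

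The members with the smallest p in roots were both lower with Cd. The normalised counts of c42052_g3 were 76.1 and 97.0 with Cd, against 137 and 136 without. The Cd-treated libraries lay below the untreated ones, but the log2 fold change of -0.64 (SE 0.22) did not pass the test (edgeR, adjusted p = 0.336). For c38568_g2 the counts were 81.8 and 65.4 with Cd, against 130 and 101 without, with a log2 fold change of -0.63 (SE 0.24; edgeR, adjusted p = 0.473).

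The median standard error of these log2 fold changes was 0.26, so changes well under 2-fold were not detectable with 2 libraries a group. Changes around 2-fold could be missed as well. In shoots, for example, a log2 fold change of 1.16 in c41392_g2 did not pass the test. For Cd in roots, the log2 fold change plus and minus 2 standard errors lay within a 4-fold change in 142 members. The 8 members with widely differing untreated root libraries made up most of the members called when 1 of those libraries was left out. Without library A, 6 members were called higher with Cd, all among the 8, with log2 fold changes between 1.34 and 2.20 (edgeR, adjusted p between 0.000171 and 0.0182); over the 10144 clusters 18 were called higher and 4 lower. Without library B, 5 members were called lower, 4 of them among the 8, with log2 fold changes between -1.49 and -1.19 (edgeR, adjusted p between 0.00229 and 0.0464); over the 10144 clusters 12 were called higher and 12 lower. In all 8 both Cd-treated libraries lay between the 2 untreated ones. The direction for these 8 was thus set by which untreated library was kept, and is not a separate result.

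In S. plumbizincicola shoots 0 of 150 members passed the test for Cd, as did 0% of all 19935 clusters and 0% of the 10144 (edgeR, adjusted p). At an unadjusted p under 0.05 there were 3 members and 469 clusters in all, and DESeq2 called 1 cluster, which was not a member, and limma 0. The members' log2 fold changes had a median of -0.03 (quartiles -0.20 and 0.14) and ranged from -0.70 to 1.16, with 72 of 150 above 0. The smallest p was that of c41392_g2, with normalised counts of 245 and 164 with Cd against 124 and 54.5 without, a log2 fold change of 1.16 (SE 0.32; edgeR, adjusted p = 1). Its groups did not overlap, yet the 2 untreated libraries differed more than 2-fold. For c45131_g1 the counts were 473 and 475 with Cd against 234 and 364 without, a log2 fold change of 0.65 (SE 0.22; edgeR, adjusted p = 1).

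The difference between the Cd response of roots and that of shoots was tested in the same fit. It was called in 0 of 150 members and in 0% of all clusters tested and 0% of the 10144 (edgeR), with 2 members and 528 clusters in all at an unadjusted p under 0.05. DESeq2 called 1 cluster and limma on log2(TPM + 1) 306, of which 0 were members. The 2 members with the smallest p were again c42052_g3, with a difference of -0.70 on the log2 scale (SE 0.32), and c38568_g2, with -0.77 (SE 0.35), each with an edgeR adjusted p of 1.

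With 1 S. alfredii library per dose, the Cd ratio of that species was not tested and could not be checked in a replicate. In roots the members' log2 ratios of Cd over untreated had a median of 0.06 (quartiles -0.21 and 0.29). At 4-fold or more 0 members were higher and 0 lower, against 0.0394% and 0.0296% of the 10144 clusters. The highest was c46103_g1, with 76.7 normalised counts with Cd against 18.7 without, a log2 ratio of 1.93. This member also varied in S. plumbizincicola roots, with 520 and 893 with Cd against 239 and 608 without. The lowest was c37277_g1, with 67.5 with Cd against 173 without, a log2 ratio of -1.34.

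In S. alfredii shoots the members' Cd ratios spread more widely than in its roots, with a median of -0.04 (quartiles -0.46 and 0.22) against -0.07 over the 10144. The 10144 clusters also spread more widely there, with quartiles of -0.35 and 0.21 in shoots against -0.17 and 0.19 in roots. At 4-fold or more 0 members were higher and 1 was lower, against 0.453% and 0.286% of the 10144 clusters. At 2-fold or more 3 members were higher and 12 lower, against 2.44% and 3.73% of the 10144. The member past 4-fold was c44810_g3, with 13.9 normalised counts with Cd against 59.2 without, a log2 ratio of -2.01. The highest ratio was that of c36612_g2, with 62.0 with Cd against 23.5 without, a log2 ratio of 1.27.

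**Figure D3:**
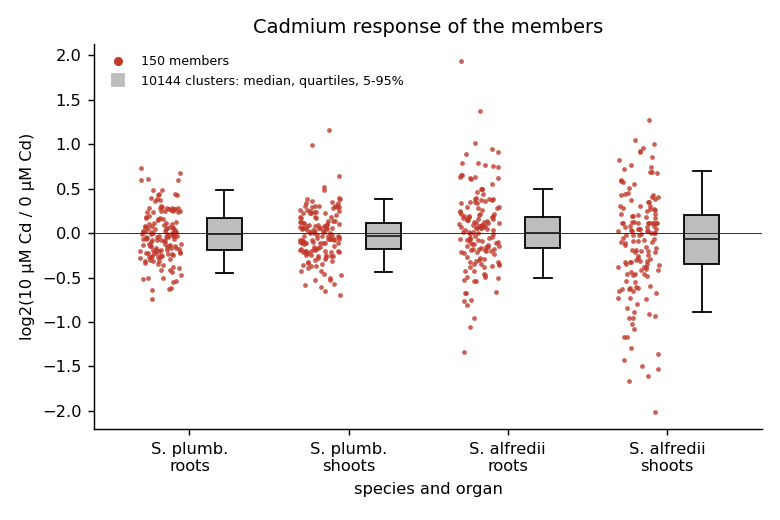
The vertical axis is the log2 ratio of 10 µM Cd over 0 µM Cd, in roots and shoots of S. plumbizincicola (2 libraries per dose) and of S. alfredii (1 library per dose); red points are the 150 members and the grey box beside them gives the median, the quartiles and the 5% to 95% range over 10144 clusters. The members lie around 0 in all 4 columns, with medians of -0.04, -0.03, 0.06 and -0.04 from left to right.

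Whether the Cd response itself differed between the species was tested in 1 fit of all 12 libraries, in which each single S. alfredii library was assumed to vary like the S. plumbizincicola groups. In roots the difference was called in 0 of 150 members (edgeR, adjusted p), against 0.0224% of 26730 clusters tested (6 clusters) and 0.00986% of the 10144. At an unadjusted p under 0.05 there were 5 members and 748 of the 26730 clusters, and DESeq2 called 1 member. The smallest p was that of c37277_g1, whose normalised counts were 1381 and 2004 with Cd against 1069 and 1363 without in S. plumbizincicola roots, and 67.5 with Cd against 173 without in S. alfredii roots. The difference of the log2 responses, S. plumbizincicola minus S. alfredii, was 1.82 (SE 0.42; edgeR, adjusted p = 0.437).

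This member was called by DESeq2 (adjusted p = 0.0157), by edgeR with no filter on low counts (adjusted p = 0.00206) and by edgeR with the library letters as a block (adjusted p = 0.0267), with a log2 difference between 1.81 and 1.84 in these fits. The next was c45832_g1, with a difference of 1.16 (SE 0.36; edgeR, adjusted p = 1). Without untreated root library A, 3 members were called higher in the response of S. plumbizincicola, and all 3 were among the 8 whose untreated root libraries differ widely; over the 10144 clusters 7 were called higher and 1 lower.

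In shoots 1 of 150 members was called, against 0.52% of the 26730 clusters tested and 0.729% of the 10144, so the share of the members was near that of the other clusters. The member was c33829_g1. Its normalised counts in S. plumbizincicola shoots were 176 and 193 with Cd against 137 and 141 without. In S. alfredii shoots they were 14.8 with Cd against 47.1 without, and the value with Cd rests on few reads. The S. plumbizincicola libraries with Cd lay slightly above the untreated ones and the single S. alfredii library with Cd lay well below, and the difference of the log2 responses was 2.04 (SE 0.45; edgeR, adjusted p = 0.0422). The call was lost when any 1 of the 4 S. plumbizincicola shoot libraries was left out, with edgeR adjusted p between 0.0603 and 0.115, and it rests on 1 S. alfredii library per dose. At an unadjusted p under 0.05 there were 11 of the 150 members and 1606 of the 26730 clusters, which are similar shares.

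The members differed more by organ than by dose. In S. plumbizincicola roots exceeded shoots in 48 members and shoots exceeded roots in 53 (edgeR, adjusted p, both doses averaged), and 49 were not called. Among all 19935 clusters tested 33.6% had more in roots and 29.9% in shoots, and among the 10144 clusters 32.9% and 26.6%, so organ differences were nearly as frequent elsewhere. The median log2 fold change of root over shoot was -0.08 over the 150 (quartiles -0.76 and 0.58) against 0.10 over the 10144. On deposited values, limma on log2(TPM + 1) called 54 members higher in roots and 37 in shoots, beside 3628 and 1858 of the 10144 clusters, with the median over all clusters tested at 0.26 on that scale against 0.10 in edgeR. Most organ differences were moderate, with a median log2 fold change of 1.09 in the 48 and of -0.97 in the 53, and 14 of the 48 and 8 of the 53 reached 4-fold.

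The highest root-over-shoot ratio was that of c45832_g1. It had 1226 and 1596 normalised counts with Cd and 1255 and 1362 without in S. plumbizincicola roots, against 45.7 and 51.8 with Cd and 46.1 and 40.9 without in shoots. The organs were far apart in every library, with a log2 fold change of 4.95 (SE 0.18; edgeR, adjusted p = 4.44e-12). In S. alfredii it had 167 with Cd and 348 without in roots, against 11.1 and 9.74 in shoots. Next came c31597_g2, with a log2 fold change of 4.40 (SE 0.76; edgeR, adjusted p = 0.00421), which is 1 of the 8 members with widely differing untreated root libraries, at 2442 and 434. Of those 8, 7 had an organ call.

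The most shoot-biased member was c34215_g1. It had 497 and 621 normalised counts with Cd and 1088 and 320 without in S. plumbizincicola roots, against 12108 and 12009 with Cd and 9501 and 12393 without in shoots, a log2 fold change of -4.12 (SE 0.36; edgeR, adjusted p = 5.36e-06). In S. alfredii it had 27.2 with Cd and 40.2 without in roots, against 937 and 528 in shoots. The species ratio of this member, 18.7-fold in roots and 15.7-fold in shoots, was thus nearly the same in 2 organs whose levels differed widely. The next was c34907_g1, with a log2 fold change of -3.52 (SE 0.19; edgeR, adjusted p = 2.20e-10).

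The organ pattern of the members was largely shared by S. alfredii, whose organ ratios are a description with no test. Of the 48 members higher in S. plumbizincicola roots 41 were also higher in S. alfredii roots, and of the 53 higher in shoots 45 were also higher in S. alfredii shoots. The same shares were not counted over the 10144 clusters, so these counts do not show a trait particular to the members. The median S. alfredii log2 ratio of root over shoot was 0.80 in the 48 and -0.79 in the 53. Across the 150 members the organ ratios of the species had a Pearson correlation of 0.83 and a Spearman correlation of 0.75, against 0.70 and 0.56 across the 10144 clusters. Members are not independent replicates and share the same libraries, and the choice, which held the species ratio above a limit in both organs, links the organ ratios.

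At 4-fold or more, 8 members were higher in S. alfredii roots and 10 in S. alfredii shoots, against 3.15% and 6.91% of the 10144 clusters. The highest was c35440_g1, with 456 normalised counts with Cd and 266 without in S. alfredii roots, against 15.7 and 14.6 in shoots, a log2 ratio of 4.43. The lowest was c34215_g1, with a log2 ratio of -4.35. No member was root-biased in all S. plumbizincicola libraries and shoot-biased in both pairs of S. alfredii libraries, which was found in 3.87% of the 10144 clusters.

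The reverse was found in 3 members, against 3.49% of the 10144 clusters. In c40871_g1 S. plumbizincicola roots had 142 and 212 normalised counts with Cd and 121 and 215 without, against 355 and 398 with Cd and 356 and 358 without in shoots, a log2 fold change of -0.997 (SE 0.18; edgeR, adjusted p = 0.000201). In S. alfredii it had 24.8 with Cd and 21.0 without in roots, against 20.4 and 14.6 in shoots, so that both root libraries lay above both shoot libraries by small amounts. The others were c38623_g1, with log2 ratios of root over shoot of -0.50 in S. plumbizincicola and 0.69 in S. alfredii, and c41678_g1, with -0.39 in S. plumbizincicola and 0.54 in S. alfredii. The difference between the species in these organ ratios was not tested.

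**Figure D4:**
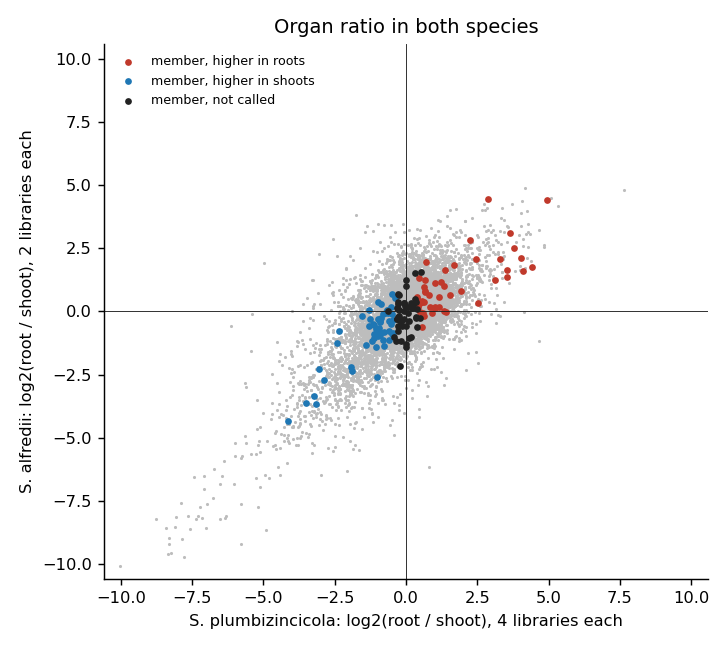
The horizontal axis is the log2 ratio of root over shoot in S. plumbizincicola (edgeR, 4 libraries per organ) and the vertical axis the same in S. alfredii (2 libraries per organ); grey points are the other clusters among the 10144, and the 150 members are red (48 higher in S. plumbizincicola roots), blue (53 higher in shoots) or black (49 not called). Most red points lie above 0 and most blue points below 0 on both axes.

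How far the species ratio of a member differed between organs was also described, since the choice took only the smaller of the 2 ratios. The root ratio minus the shoot ratio had a median of -0.04 on the log2 scale and ranged from -1.76 to 2.49. In 19 members the root ratio was larger by 2-fold or more, against 13.3% of the 10144 clusters, and in 15 the shoot ratio was, against 13.8%. The extremes toward roots were c31597_g2, with 22-fold in roots and 3.90-fold in shoots, and c45898_g4, with 30.4-fold in roots and 5.62-fold in shoots. Both are among the 8 members with widely differing untreated root libraries. The extremes toward shoots were c35440_g1, with 5.18-fold in roots and 17.5-fold in shoots, and c41392_g2, with 5.01-fold in roots and 14.3-fold in shoots.

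Some cluster IDs share their first part, here called the component, and the sources do not say how the transcript set was assembled. The 150 members came from 149 components, and c32428 held 2 of them. In S. plumbizincicola roots c32428_g1 had 51.7 and 58.7 normalised counts with Cd and 77.0 and 55.6 without, against 7.77 with Cd and 6.80 without in S. alfredii roots. For c32428_g2 the counts were 103 and 97.0 with Cd and 84.9 and 103 without in S. plumbizincicola roots, against 8.74 with Cd and 7.36 without in S. alfredii roots. If reads that match both were split among them, the level of each alone would be uncertain, which was not tested. Split reads can leave fractional counts, and 98.7% to 99.4% of the non-zero expected counts per library were exactly whole.

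Other clusters of the same component bear on how the species ratio reads. Of the members, 88 shared their component with at least 1 other cluster (58.7%, against 46.8% of the 10144), and 62 were alone in it. In 11 members a partner cluster was at least 4-fold higher in S. alfredii in both organs (7.33%, against 6.04%), and in 10 a partner was at least 4-fold higher in S. plumbizincicola (against 2.5%). When the counts of all clusters of a component were added, 98 of the 150 stayed at least 4-fold higher in S. plumbizincicola in both organs, 29 were between 2-fold and 4-fold by the smaller ratio, 12 were under 2-fold, and 11 were below 1 in at least 1 organ. For the 62 members alone in their component the sum is the member itself and could not change, and 56 of them are among the 98. Of the 88 members with partners, 82 were past 4-fold in both organs on their own and 42 stayed so by the sum. The 98 include 0 of the 11 with a partner higher in S. alfredii.

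The lowest sum was that of the component of c38315_g1. This member alone had 84.3 and 61.8 normalised counts with Cd and 79.0 and 87.0 without in S. plumbizincicola roots, against 19 with Cd and 20.9 without in S. alfredii roots, a log2 ratio of 1.97. Its component as a whole was lower in S. plumbizincicola, with log2 ratios of -1.49 in roots and -1.90 in shoots. For c33410_g1, which is alone in its component, the ratio is the same on both readings, and for c36833_g1 the component ratios were 6.40 in roots and 4.25 in shoots. Of the 138 members past 4-fold in both organs on their own, 40 were not past it by the component sum. All 40 were among the 82 of these that have partners. Whether partners are copies, alleles or parts of 1 gene cannot be told from the files.

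**Figure D5:**
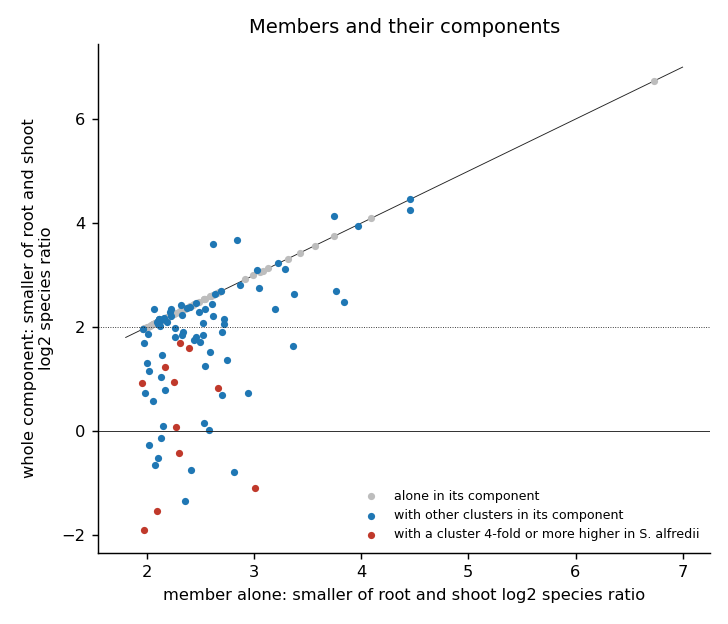
The horizontal axis is the score of each of the 150 members, the smaller of its root and shoot log2 species ratios, and the vertical axis the same score after the counts of all clusters of its component were added; grey points are members alone in their component, blue those with partners and red those with a partner at least 4-fold higher in S. alfredii. The 11 red points lie below the dotted line at a log2 ratio of 2 (4-fold), and 98 points lie on or above it. Of these 98, 56 are members alone in their component, whose score cannot change.

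In length and number of isoforms the members were much like the rest. The median length was 1448 bases against 1476 over the 10144 clusters, and the median number of isoforms was 4 in both, although 21 members had a single isoform (14%, against 6.78%). The isoform-weighted length that the authors deposited beside the counts was more often longer in S. plumbizincicola. Among the 129 members with several isoforms it was over 1.1-fold longer in S. plumbizincicola in 58 in roots (45.0%, against 30.9% of the 10144 clusters with several isoforms) and in 59 in shoots (45.7%, against 30.1%). It was over 1.1-fold shorter in 15 in roots (11.6%, against 23.2%) and in 14 in shoots (10.9%, against 24.2%).

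The species ratio also depends on the scale. On the TPM scale the median log2 species ratio of the 10144 clusters was -0.03 in roots but 0.59 in shoots, so that shoot ratios on that scale are read against 0.59. The members' medians were 2.47 in roots and 3.00 in shoots on TPM, and 109 of the 150 were at least 4-fold higher in both organs on that scale. When the 150 highest scores were taken from TPM in place of normalised counts, 94 of the members were among them.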

How the data were processed

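RNA was measured in 12 Illumina libraries grouped by the labels; a library from pooled organs, sequenced by pyrosequencing, was left out. FastQC (read quality), Bowtie (alignment) and RSEM (abundance) are named in the submitters' processing notes, without versions; the assembly and the settings are not given in the sources used here. The deposited expected counts, RSEM estimates per the file headers, were exactly whole in 98.7% to 99.4% of non-zero values and were rounded for the tests. The deposited TPM values entered as alternatives and for levels between clusters; the deposited FPKM values were not used. Total counts of 1260160 to 4670429 per library put 3 counts, the upper limit that 0 reads allow, at 0.642 to 2.38 CPM, for counting error only.

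The members, lists and tests were chosen with earlier results of these data known. Normalised counts are unrounded expected counts over median-of-ratios size factors. Fits were made in edgeR 4.0.16 under R 4.3.3 (TMM, filterByExpr, robust quasi-likelihood F-test, two-sided, Benjamini-Hochberg adjustment over all clusters tested, threshold 0.05), limma 3.58.1 and DESeq2 1.42.0 as alternatives. The 8 S. plumbizincicola libraries were fitted by group (19935 clusters, 4 residual degrees of freedom, common biological coefficient of variation 0.177), and all 12 for the species difference in Cd response (26730 clusters, 4 degrees of freedom, 0.178). The 2 libraries of a group differed beyond counting error (chi-square over degrees of freedom of 3.11 to 14.6) and were counted separately. Ratios within S. alfredii are of CPM with a prior count of 2. The functions were tested on simulated data.

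Named clusters are the 2 with the highest score, the 2 on each side of the limit, the 2 highest by TPM in S. plumbizincicola, in each test the 2 highest and 2 lowest calls (or the 2 smallest p), the extremes of the untested ratios and the component with most members. Clusters named beyond this rule were chosen after their values were seen. Alternatives were other size factors, tools, filters on low counts, doses, deposited TPM, component sums, a block for the library letters and leaving out each library.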

Additional observations from a re-analysis of the deposited data

Results flagged for a closer look

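The estimated difference of the Cd response of c33829_g1 in shoots, S. plumbizincicola minus S. alfredii, was 2.04 on the log2 scale (SE 0.45) and passed the threshold in 1 fit of all libraries (edgeR, adjusted p = 0.0422). Over 14 alternatives the difference lay between 1.70 and 2.16 and the adjusted p between 0.00684 and 0.199, and 9 of them kept the call. The fits that kept it include those without an S. plumbizincicola root library, which the shoot contrast does not use directly. Leaving out any 1 S. plumbizincicola shoot library lost the call. The call rests on 1 S. alfredii library per dose, and the library with Cd held few reads of this cluster. The spread of these libraries was not measured but assumed to equal that of S. plumbizincicola, so a difference between the species is not established.

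In 3 members (c38623_g1, c40871_g1 and c41678_g1) all S. plumbizincicola shoot libraries lay above all its root libraries, while both S. alfredii root libraries lay above both its shoot libraries. This difference between the species was not tested, and the share of such clusters among the 10144, 3.49%, was higher than among the members.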

How the results depend on the processing

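Which clusters are members depended most on the count minimum. Of the 150, 26 were also chosen with at least 50 counts in all 12 libraries, 15 with at least 1 count, and 94 on deposited TPM, while 143 were with TMM factors, 106 with component sums and 132 to 147 when 1 library was left out. For Cd in S. plumbizincicola roots the number of members called went from 0 to 1 with no filter on low counts, and was 0 to 6 when 1 library was left out (6 without untreated root library A, 5 without B). For Cd in shoots it was 1 with no filter. For the species difference in the root response it was 1 with DESeq2, 1 with limma, 1 with no filter and 1 with the replicate block, and 0 to 3 when 1 library was left out. The limma call was in c38568_g2 with a difference of -2.02 on log2(TPM + 1), the others in c37277_g1. For the species difference in the shoot response it was 2 with no filter, and 0 to 1 when 1 library was left out; the limma call there was another member, lower. Organ calls were 77 to 107 under the alternatives, against 101. In S. alfredii the Cd ratio passed 2-fold in 18 members and 4-fold on TPM + 1 in 0, against 1 at 4-fold, and the organ ratio passed 2-fold in 48, against 18 at 4-fold. Component sums were 4-fold higher in 75 members on TPM, against 98. The cause of these changes was not tested, apart from the fewer or more clusters and libraries that a setting itself leaves.

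The letters A and B are not said to mark shared plants or batches. The deviations of like-lettered libraries correlated between groups at 0.0771 to 0.438, all above 0, which is a hint of shared letters from the data and not from the design. The values reported are without the replicate block. With it there were 107 organ calls among the members, and 0 Cd calls among them in either organ. Over all 19935 clusters, Cd calls with the block were 51 higher and 465 lower in roots, against 21 and 394 without it. In shoots they were 5 higher and 0 lower, against 0 and 0. Limma on TPM moved the median Cd response of all clusters in roots to 0.16 from 0, and 112 members were above 0 on that scale, as were 72.1% of the 10144 clusters. Depth limits the ratios of the 85 members with 10 to 19 counts in an S. alfredii library.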
